A study of Sus scrofa with 6 samples.

Results

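Kruppel-like factors (KLF) are transcription factors that bind GC-rich and CACCC sequences through zinc fingers at their carboxy terminus. The family is sorted by partner: KLF4 and KLF7 belong to a group of activators that recruit acetyltransferases, whereas KLF9, KLF10 and KLF13 bind the corepressor SIN3A. Several members are immediate early genes, transcribed within minutes of a stimulus such as serum, a cytokine or a hormone, and mouse Sertoli cells are known to express KLF4. Pig genes were looked up by the symbols KLF2, KLF3, KLF4, KLF5, KLF6, KLF7, KLF9, KLF10, KLF11 and KLF13. Of these 10 symbols, 5 had an identifier among the 25149 genes counted, here called paired: KLF4, KLF7, KLF9, KLF10 and KLF13. The other 5, KLF2, KLF3, KLF5, KLF6 and KLF11, are paired in the name table used with identifiers that are not among the genes counted. They may be counted under other identifiers and are not analysed here.

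The cells were Sertoli cells isolated from the testes of neonatal Duroc-Landrace pigs of wild-type genotype (NPSC), with the testes of a litter processed together, and grown as a monolayer in DMEM with 10% fetal bovine serum. Part of the medium was exchanged for DMEM (baseline NPSC, 3 plates) or for pooled normal human serum with its complement kept active (complement NPSC, 3 plates, 90 min), and 1 RNA library was counted per plate. No serum without complement was among these samples, so complement and the other contents of human serum cannot be told apart. The paper took testes from 3 litters born on different dates. Whether plates of the same number came from the same litter is not stated, and p-values measure the spread between plates.

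Counts on genes came to 3641518 to 6403606 per complement NPSC library and to 6796183 to 8371923 per baseline NPSC library. Reads on olfactory receptor genes, which are not known to be transcribed in testis somatic cells, served as a measure of background. Their density was 1.18 to 2.15 counts per kb of exon per 1000000 counts of the library in baseline NPSC, 4.01 and 4.43 in complement replicates 1 and 2, and 1.51 in complement replicate 3, so the complement libraries did not form 1 uniform group. A gene's expected background is its exon length times that density. Of 9 Sertoli cell markers 8 were paired, SOX9, WT1, GATA4 and CLDN11 among them, and expected background was at most 24.9% of the counts of any (DHH). Summed, they stood at 1424 to 1742 CPM (counts per 1000000 of the TMM-normalized library size) in baseline NPSC and at 955 to 1115 CPM in complement NPSC, although edgeR called 0 of the 8. At an unadjusted p under 0.05 the count was 7 of 8, against 15.2% of all tested genes: 5 with lower values in complement NPSC, the abundant CLDN11 and INHA among them, and 2, DHH and KRT18, with higher values. Markers of other testis cells were present as well, with summed levels in baseline and complement NPSC of 2458 to 3722 and 1912 to 3569 CPM for peritubular myoid cells (5 of 5 markers paired, MYH11 at 0). Those of Leydig cells (4 of 5 paired, CYP11A1 at 0) had 936 to 1139 and 713 to 760 CPM, and those of endothelial cells (4 of 7 paired) 416 to 613 and 307 to 682 CPM. The part of these in the values of the KLF genes was not tested. For genes at 0 in every library, MYH11 and CYP11A1 among them, absent transcripts and reads not counted under the identifier used cannot be told apart. In such bulk samples, fewer cells of a type and less RNA per cell cannot be told apart.

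The question was whether 90 min with human serum changed the KLF genes, and in the comparison of the 2 groups with no covariate no change exceeded the spread between plates. By edgeR's quasi-likelihood test, 0 of the 5 genes had an adjusted p under 0.05, against 0.103% of the 17512 genes tested. At an unadjusted p under 0.05 the count was also 0 of 5, against 15.2% of all genes, whereas it was 3 of 5 in a fit with background density as a covariate, which is given after the single genes. The DESeq2 Wald test, the study's own test, called 0 of 5, against 0.394% of the genes to which it gave an adjusted p. In CPM, the baseline and complement libraries overlapped for all 5 genes, whereas 17.1% of all tested genes had groups that did not overlap. With 3 plates against 3, an exact two-sided permutation test could not go below 0.1. The 95% intervals of the fold changes, complement over baseline, ran from 0.529 at the lowest (KLF4) to 1.86 at the highest (KLF9).

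**Figure D1:**
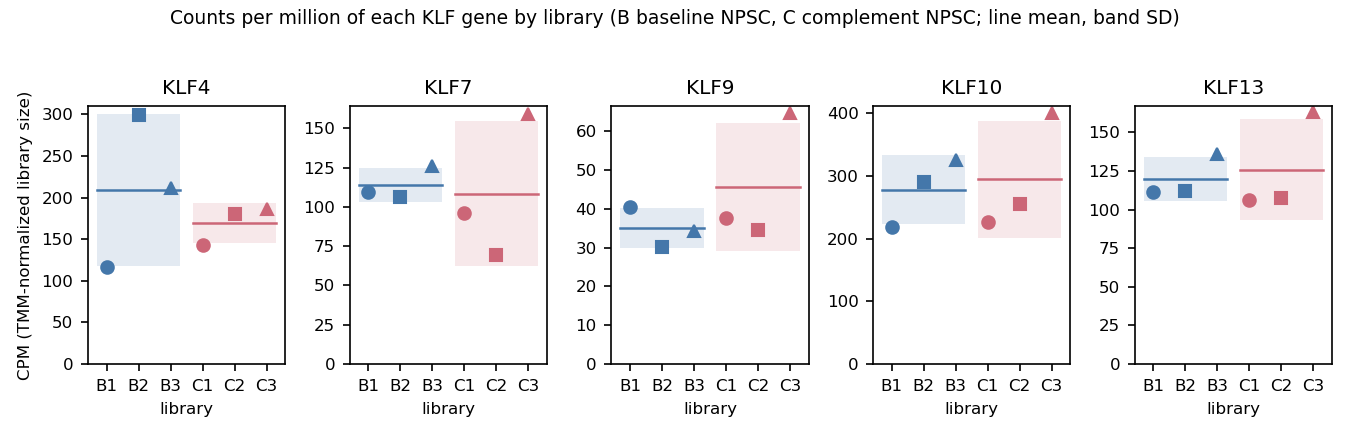
CPM of each KLF gene in the 3 baseline NPSC (B1 to B3, blue) and 3 complement NPSC libraries (C1 to C3, red); lines are group means, bands the SD, and each vertical axis starts at 0. For KLF7, KLF9, KLF10 and KLF13 the highest point is complement replicate 3, while for KLF4 the baseline libraries span from 116 to 299 CPM.

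KLF10, also called TGF-beta-inducible early gene, is a repressor that dampens SMAD7 and so strengthens TGF-beta signaling. The files, whose genome build is unnamed, place this gene (ENSSSCG00000027480) on chromosome 4, minus strand, 37443340 to 37453430, with 2988 bp of exon. The baseline NPSC libraries held 219, 289.6 and 326 CPM and the complement NPSC libraries 227, 255 and 401 CPM. The complement values reached from just above the lowest baseline library to past the highest one. The means were 278 ± 54.5 CPM and 294 ± 93.4 CPM (SD, n = 3), a log2 fold change of 0.08 (SE 0.27, 95% interval −0.49 to 0.65, edgeR adjusted p = 0.876). Without complement replicate 3 its log2 fold change was −0.24, and without baseline replicate 1, the lowest library, it was −0.08.

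KLF4, a zinc finger factor best known as one of the genes that reprogram somatic cells to pluripotency, also restrains inflammation in the vessel wall. In the same unnamed build it (ENSSSCG00000005437) occupies chromosome 1, minus strand, 279056681 to 279061593, with 3217 bp of exon. In baseline NPSC it had 116, 299 and 211 CPM, and in complement NPSC 142, 181 and 186 CPM. All 3 complement values lay inside the baseline range, and the baseline libraries differed among themselves with a coefficient of variation of 43.8%, against 13.9% in complement NPSC. The means were 209 ± 91.6 CPM and 170 ± 23.6 CPM (SD, n = 3), and the log2 fold change was −0.30 (SE 0.29, 95% interval −0.92 to 0.32, edgeR adjusted p = 0.572). This value turned on single baseline libraries, being −0.60 without replicate 1 and 0.033 without replicate 2.

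KLF7, an activator known for its part in axon growth, is on chromosome 15, minus strand, 121838760 to 121892429 (ENSSSCG00000029998, 3074 bp of exon). Its baseline libraries were close together at 109, 106 and 126 CPM. Its complement libraries stood at 96.4, 69.4 and 159 CPM, the first and second of these below every baseline library and the third above every one. Scaled by library total, without TMM, the second alone was below every baseline library (79.9 CPM). The group means, 114 ± 10.6 CPM and 108 ± 46.02 CPM (SD, n = 3), were therefore nearly equal, with a log2 fold change of −0.07 (SE 0.26, 95% interval −0.62 to 0.48, edgeR adjusted p = 0.893). Upper-quartile normalization, which moved the all-gene median up by 0.11, gave KLF7 0.021. With complement replicate 3 left out, KLF7 stood at −0.49 (SE 0.19, edgeR adjusted p = 0.0842), the lowest adjusted p of any of the 5 genes in any fit. That fit called 10.1% of all genes and 0 of the 5.

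KLF13, a SIN3A-binding factor known in T lymphocytes for acting on the chemokine gene CCL5, is on chromosome 1, minus strand, 159396562 to 159485685 (ENSSSCG00000026006, 5462 bp of exon). It had 111, 112 and 136 CPM in baseline NPSC and 106, 108 and 163 CPM in complement NPSC. As for KLF7, complement replicates 1 and 2 were below every baseline library and replicate 3 was above every one, but the steps were smaller. This order did not hold by library total, where KLF13 had 113, 101 and 123 CPM in baseline NPSC and 122, 124 and 147 CPM in complement NPSC, with complement replicates 1 and 2 above baseline replicates 1 and 2. The means of 120 ± 14.2 CPM and 126 ± 32.6 CPM (SD, n = 3) gave a log2 fold change of 0.07 (SE 0.22, 95% interval −0.40 to 0.54, edgeR adjusted p = 0.866). It was −0.19 without complement replicate 3.

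KLF9 is induced by glucocorticoids and thyroid hormone in many tissues and acts mostly as a repressor. The gene (ENSSSCG00000021646) is on chromosome 1, plus strand, 250030153 to 250057245, with 4476 bp of exon. Baseline NPSC had 40.4, 30.2 and 34.3 CPM and complement NPSC had 37.6, 34.6 and 64.6 CPM. With TMM scaling only complement replicate 3 lay outside the baseline range, above it. By library total complement replicate 1 did so too, at 43.03 CPM against 41.1 CPM in the highest baseline library. KLF9 had the highest log2 fold change of the 5 genes, 0.39 (SE 0.24, 95% interval −0.12 to 0.90, edgeR adjusted p = 0.411), with means of 35.0 ± 5.17 CPM and 45.6 ± 16.5 CPM (SD, n = 3). That value rested on complement replicate 3, without which it was 0.018 (SE 0.20, edgeR adjusted p = 0.951).

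Complement replicate 3 was thus the highest of all 6 libraries for 4 of the 5 genes, KLF7, KLF9, KLF10 and KLF13, as it was for 13.8% of all tested genes. By library total, a scaling chosen here after seeing the data, it was the highest for the same 4 genes and for 7.81% of all. For 2 of the 5, KLF7 and KLF13, this went together with complement replicates 1 and 2 below every baseline library, a pattern found in 5.45% of all tested genes. By library total it was found for 0 of the 5 genes and for 1.63% of all. A further fit took the log2 of the olfactory receptor density as a covariate. It gave log2 fold changes above 0 for all 5 genes, from 0.17 (SE 0.34) for KLF4 to 0.59 (SE 0.17) for KLF10 and 0.67 (SE 0.24) for KLF9. None was called by edgeR in it (adjusted p from 0.394 to 0.986), against 0.36% of all genes. At an unadjusted p under 0.05 the count in this fit was 3 of 5, KLF9, KLF10 and KLF13, against 6.05% of all genes.

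**Figure D2:**
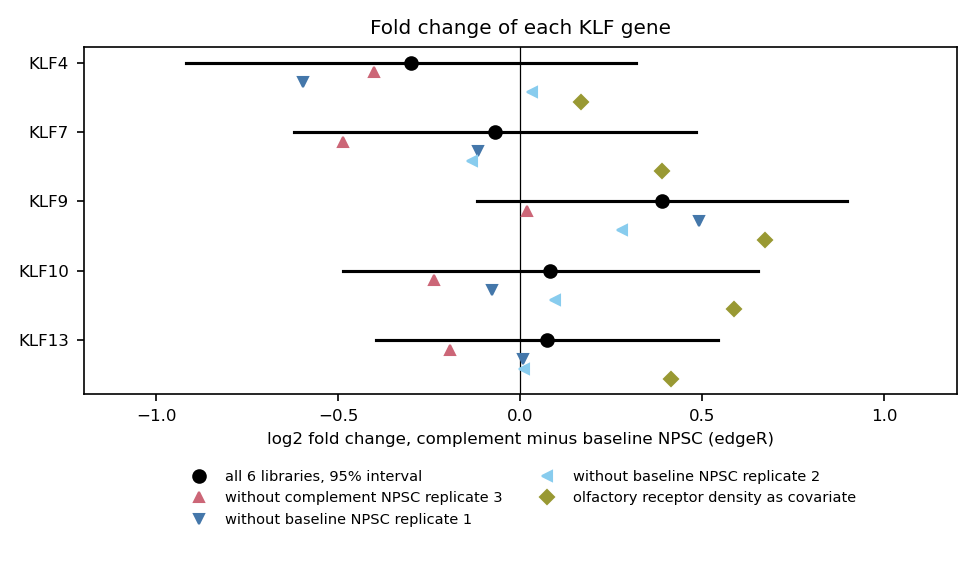
Log2 fold change of each KLF gene (horizontal axis, complement minus baseline NPSC, edgeR) with all 6 libraries (black, bar 95% interval), without complement replicate 3, baseline replicate 1 or baseline replicate 2 (triangles) and with background density as covariate (diamonds). Every black bar crosses 0, leaving out complement replicate 3 moved each gene to a lower value, and the covariate moved each to a higher one.

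Levels of different genes were compared as CPM per kb of exon. In baseline NPSC the order was KLF10 at 93.1 ± 18.2, KLF4 at 64.9 ± 28.5, KLF7 at 37.04 ± 3.45, KLF13 at 21.9 ± 2.60 and KLF9 at 7.81 ± 1.15 CPM per kb (SD, n = 3). The ranges of KLF10 and KLF4 overlapped, as did those of KLF4 and KLF7, so across plates these neighbours did not differ beyond their spread. Within each library, however, the order was KLF10, KLF4, KLF7, KLF13, KLF9 in all 6, although KLF4 and KLF7 were close in baseline replicate 1 (36.1 and 35.6 CPM per kb). KLF7 and KLF13 did not overlap, nor did KLF13 and KLF9. The order in complement NPSC was the same, at 98.5 ± 31.3, 52.7 ± 7.35, 35.2 ± 14.97, 23.03 ± 5.97 and 10.2 ± 3.69 CPM per kb (SD, n = 3). There KLF10 stood apart from KLF4, and KLF9 from KLF13, while KLF4 overlapped KLF7 and KLF7 overlapped KLF13. Against all tested genes, the mean level of KLF10 over the 6 libraries was above that of 96.4% of genes, KLF4 above 93.3%, KLF7 above 87.2%, KLF13 above 76.3% and KLF9 above 43.98%.

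Summed over the 5 genes, the level was 174, 252 and 248 CPM per kb in the baseline libraries and 179, 192 and 288 in the complement libraries, so the groups overlapped. KLF10 made up 38.5% to 46.6% of that sum in every library. KLF4 made up 20.04% to 36.97% and was the member whose share moved most in percentage points. KLF7 held 11.8% to 20.4%, KLF13 8.13% to 11.7% and KLF9 2.68% to 5.18%. KLF4 and KLF9 were the pair with the least similar profiles, and the ratio of their levels per kb, which does not depend on library scaling, was 3.9995, 13.8 and 8.57 in baseline NPSC. In complement NPSC it was 5.27, 7.26 and 3.998, so this ratio overlapped between the groups too.

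**Figure D3:**
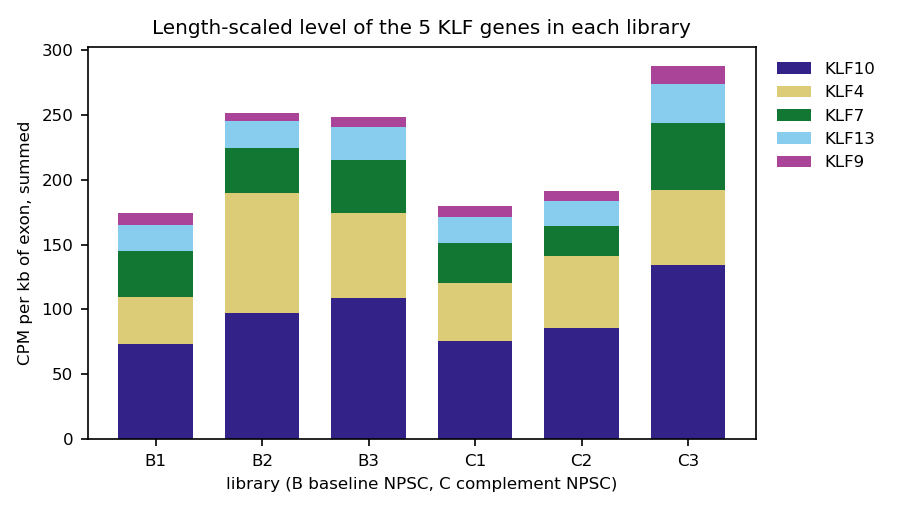
Summed level of the 5 KLF genes in each library (vertical axis, CPM per kb of exon, stacked from KLF10 at the bottom to KLF9 at the top; B baseline NPSC, C complement NPSC). The bars run from 174 to 288 CPM per kb, the tallest being complement replicate 3, and KLF10 is the largest segment in all 6, by the least in baseline replicate 2 (38.5% against 36.97% for KLF4).

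Expected background assumes 1 density per kb of exon for every gene, and the counts of some genes fell below it. KLF8 and KLF12, described further on, did so in all 6 libraries, so the values below are approximate. Expected background took a different part of each gene's counts. It came to 2.18% of the counts of KLF10 over the 6 libraries, 3.53% for KLF4, 5.69% for KLF7, 9.29% for KLF13 and 23.5% for KLF9. For KLF9, the lowest of the 5 genes per length, it was 41.7% and 49.9% of the 169 and 145 counts in complement replicates 1 and 2, and 11.6% of the 372 counts in complement replicate 3. After subtraction KLF9 stood at 6.92, 5.41 and 6.35 CPM per kb in baseline NPSC and at 4.90, 3.88 and 12.8 in complement NPSC. The complement libraries then lay on both sides of all baseline libraries, where before only replicate 3 had lain outside their range. A new edgeR fit on the subtracted counts, with its own filter (15077 genes tested) and normalization, gave KLF9 a log2 fold change of 0.39 (SE 0.32, edgeR adjusted p = 0.641) and KLF7 one of 0.078 (SE 0.22). In the same fit KLF4 stood at −0.045 (SE 0.28), KLF10 at 0.31 (SE 0.17) and KLF13 at 0.22 (SE 0.16), and 0 of the 5 were called. In the levels per kb, with the normalization unchanged, subtraction left KLF7 lower in complement NPSC, at 35.5 in baseline and 32.2 CPM per kb in complement NPSC. There the means of KLF13 changed their order, to 20.3 ± 2.87 CPM per kb in baseline and 20.02 ± 7.12 in complement NPSC (SD, n = 3), a difference well within the spread.

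The profiles of the 5 genes over the 6 libraries were compared by the root mean square difference of log2 CPM, each gene centred on its own mean. KLF10 and KLF13 were the closest pair, at 0.13, and KLF4 and KLF9 the farthest, at 0.63. Around its own mean KLF4 varied most, by 0.43, and KLF13 least, by 0.23. Among 8549 other genes with a symbol and a mean of at least 10 CPM, those with the profile most like KLF4 were PLA2R1 (0.067), MTHFD2 (0.11) and NFE2L3 (0.12). Those nearest to KLF10 were ADAM12 (0.059), CBLB (0.060) and CDV3 (0.060). These values describe 6 libraries that share depth and background differences, and they carry no test.

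The further KLF genes had lower levels per length than the 5, with means of 3.71 to 4.81 CPM per kb over the 6 libraries for those tested. Of 8 further KLF symbols 6 were paired, of which KLF1, KLF14, KLF16 and KLF17 were tested, KLF12 had 0 counts in all 6 libraries and KLF8 had 0 to 6. Expected background was 47.4% to 57.2% of the counts of the 4 tested genes. KLF1, the erythroid member that switches on globin genes, had 5.53 ± 2.58 CPM in baseline NPSC and 10.2 ± 1.94 CPM in complement NPSC (SD, n = 3). Its log2 fold change was 0.89 (SE 0.39, edgeR adjusted p = 0.312). KLF17 had 3.58 ± 1.42 and 5.58 ± 0.377 CPM. In both, every complement library was above every baseline library, as groups did not overlap for 17.1% of all tested genes. Of the 48 olfactory receptor genes 30 passed the filter on low counts, and these had a median log2 fold change of 0.77, with groups apart for 5 of the 30. All 30 were above 0. A gene could pass that filter by its counts in 1 group alone, so the filter may raise this median. The density over all 48 did not separate the groups, since that of complement replicate 3 lay inside the baseline range. The part of background in the values of KLF1 and KLF17 was not tested. KLF16, a repressor of the SIN3A-binding group, had 9.89 ± 1.82 and 9.49 ± 2.35 CPM, and KLF14, of the same group, 7.91 ± 1.48 and 7.30 ± 2.62 CPM.

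The SP genes are the nearest relatives of the KLF family and bind the same GC-rich boxes. Of 9 SP symbols 5 were paired and tested. SP1, a general activator, had 134 ± 16.5 and 105 ± 29.4 CPM, SP3 had 119.99 ± 31.5 and 83.5 ± 20.5 CPM, and SP2 had 27.7 ± 1.40 and 24.5 ± 6.53 CPM in baseline and complement NPSC (SD, n = 3). Over the 9 tested genes of both lists, edgeR called 0, DESeq2 called 0, and 2 had an unadjusted p under 0.05 in edgeR (KLF1 and SP3), against 15.2% of all tested genes. The median log2 fold change was 0.29 for the 4 KLF genes and −0.22 for the 5 SP genes, beside 0.02 over all tested genes.

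**Figure D4:**
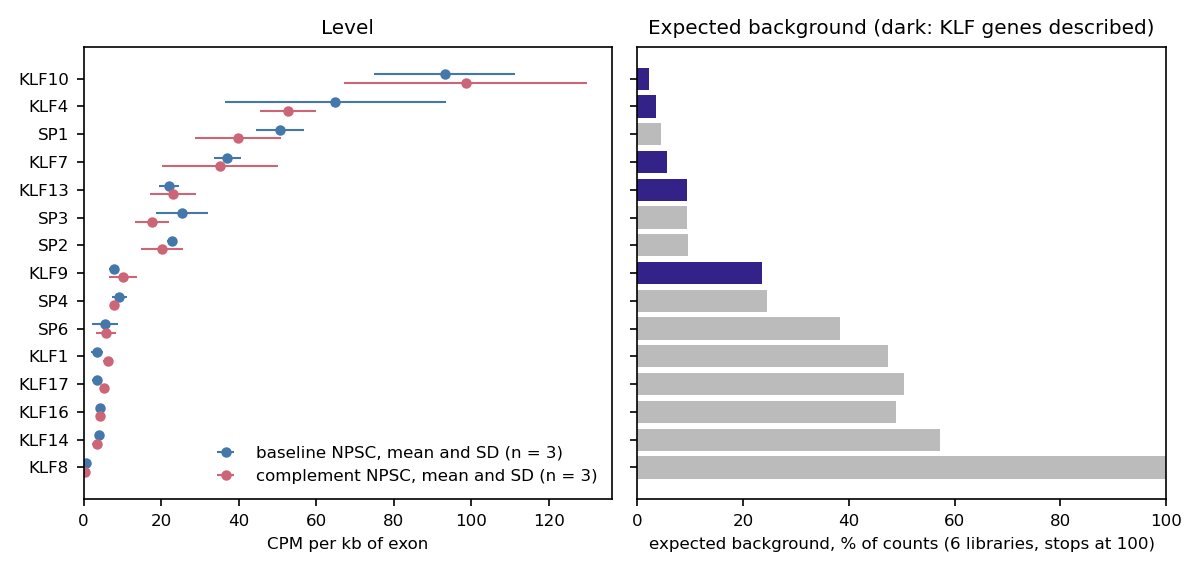
Left, level of the KLF and SP genes with counts (horizontal axis, CPM per kb of exon; points group means, bars SD, n = 3). Right, expected background as a percentage of each gene's counts over the 6 libraries, with KLF4, KLF7, KLF9, KLF10 and KLF13 dark. KLF10 has the highest level, and background rises from 2.18% for KLF10 to 57.2% for KLF14, with KLF8 past the end of the axis.

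KLF2 and KLF4 are transcribed downstream of the kinase ERK5 and MEF2 factors, other members respond to serum response factor, and KLF proteins act through SIN3A, CtBP and acetyltransferases and are removed by ubiquitin ligases. Of 27 such regulators and cofactors 19 were paired and 17 tested. EdgeR called 0 of them, DESeq2 called 0, and 0 had an unadjusted p under 0.05 in edgeR, against 15.2% of all tested genes. The acetyltransferases EP300 and CREBBP, both long transcripts, had the most CPM, EP300 with 554 ± 70.4 and 425 ± 154 CPM and CREBBP with 332 ± 29.2 and 249 ± 79.6 CPM (SD, n = 3). MEF2D, which acts downstream of ERK5, had 169 ± 2.79 and 184 ± 40.5 CPM. SIN3A, the partner of KLF9, KLF10 and KLF13, had 136 ± 16.2 and 130 ± 39.5 CPM. The median log2 fold change of the 17 genes was −0.11, and 4 of the 17 were above 0. Groups did not overlap for 2 of the 17, both lower in complement NPSC, against 17.1% of all tested genes in either direction.

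Of 11 genes that KLF proteins are known to act on, 9 were paired and 7 tested. EdgeR called 0 of the 7, DESeq2 called 0, and 1 had an unadjusted p under 0.05 in edgeR, against 15.2% of all tested genes. That gene was LGALS3 (galectin-3, a target of KLF3), with 109.6 ± 17.7 CPM in baseline NPSC and 69.5 ± 11.6 CPM in complement NPSC (SD, n = 3). Its log2 fold change was −0.66 (SE 0.21, edgeR adjusted p = 0.267). It was 1 of the 7 whose groups did not overlap, against 17.1% of all tested genes. ENG, the TGF-beta coreceptor endoglin and a KLF6 target, had 1088 ± 252 and 774 ± 479 CPM. SMAD7, which KLF10 and KLF11 repress, had 137 ± 4.06 and 109 ± 23.3 CPM. CCL5, the KLF13 target, had 18.1 ± 3.06 and 25.3 ± 8.86 CPM, with 41.2% of its counts expected as background. The median log2 fold change of the 7 was −0.32.

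Other early-response genes of the same libraries were read beside the KLF genes, from lists written with earlier results of these data known. Of 8 serum-induced immediate early genes tested, 3 rose by edgeR, against 0.103% of all tested genes called: EGR1, EGR3 and JUNB. JUNB, a subunit of the AP-1 factor, went from 191 ± 4.79 to 515 ± 126 CPM (SD, n = 3), a log2 fold change of 1.43 (SE 0.25, edgeR adjusted p = 0.0455). EGR1, a zinc finger factor induced by growth factors, went from 172 ± 37.7 to 698 ± 403 CPM (log2 fold change 2.02, SE 0.36, edgeR adjusted p = 0.0455), and its relative EGR3 from 11.5 ± 3.78 to 47.6 ± 16.8 CPM (2.06, SE 0.29, edgeR adjusted p = 0.00963). For 4 of the 8, JUNB, EGR1, EGR3 and EGR2, the 3 complement libraries were all above the 3 baseline libraries, against 17.1% of all tested genes with groups apart in either direction and 0 of the 5 KLF genes. FOS had 152 ± 69.4 and 152 ± 29.2 CPM. The median log2 fold change of the 8 genes was 0.79, against 0.07 for the 5 KLF genes and 0.02 for all tested genes. Of the 5 KLF genes only KLF4 and KLF10 were listed here as immediate early genes. KLF2 and KLF6, listed as such too, are not analysed. Of 5 glucocorticoid receptor targets tested, read because KLF9 is one, edgeR called 0 and 2 had an unadjusted p under 0.05, against 15.2% of all tested genes. They were PER1, with 126 ± 11.5 and 249 ± 66.4 CPM (log2 fold change 0.98, SE 0.24, edgeR adjusted p = 0.225), and DUSP1, with 168 ± 14.5 and 306 ± 78.7 CPM (log2 fold change 0.86, SE 0.24, edgeR adjusted p = 0.261). The paper lists both PER1 and DUSP1 as differentially expressed, marked as found by Advaita alone. SGK1 had 403 ± 95.8 and 358 ± 98.1 CPM.

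**Figure D5:**
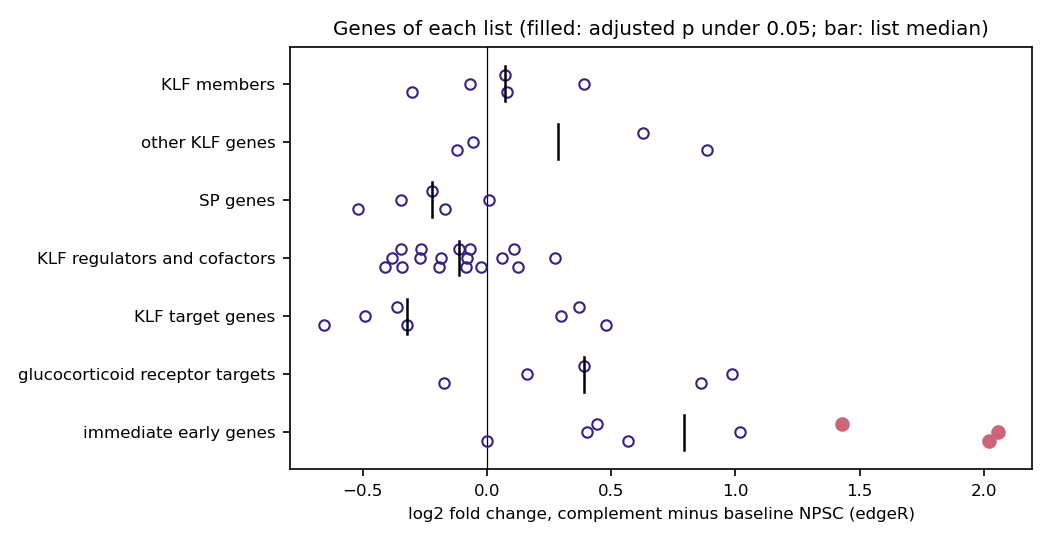
Log2 fold change (horizontal axis, complement minus baseline NPSC, edgeR) of each tested gene in 7 lists; bars are list medians and filled points have an adjusted p under 0.05. The 5 KLF genes lie between −0.30 and 0.39, and the 3 filled points, EGR1, EGR3 and JUNB, are all immediate early genes.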

How the data were processed

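The authors deposited raw counts of reads per gene, without normalization, for 6 libraries (3 baseline NPSC, 3 complement NPSC). Per the labels, their processing notes name Trimmomatic 0.36, STAR 2.5.2b and featureCounts of Subread 1.5.2. The genome build and strand setting are not given in the sources used here, so overlapping and antisense genes may share counts. Ensembl identifiers were paired with symbols for 11804 genes. Genes were filtered with filterByExpr, normalized by TMM and compared with edgeR 4.0.16 (glmQLFit, quasi-likelihood F-test, two-sided, no covariate, Benjamini-Hochberg over 17512 genes) in R 4.3.3, and called at an adjusted p under 0.05. The SE is the size of the log2 fold change over the root of F, and the 95% interval uses the test's degrees of freedom. CPM use the TMM-normalized library size. For profiles, log2 CPM had a prior count of 2. Background density came from 48 olfactory receptor genes.

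All 5 KLF genes passed the filter. All members were described. From each other list the called genes were named, or otherwise the 3 with the highest CPM. For KLF4 and KLF10 the 3 genes with the nearest profiles were named. Genes named beyond these (SIN3A, CCL5, FOS, EGR2, KLF17 and the cell type markers) were picked after their values were seen. The members and lists were chosen with earlier results of these data known. Alternatives were DESeq2 1.42.0, its size factors in edgeR, upper-quartile normalization, other count filters, the study's fold threshold, a replicate block, leaving out each library, a background covariate and background subtraction. The procedure was tested on simulated counts. Plots used matplotlib 3.10.9.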

Additional observations from a re-analysis of the deposited data

How the results depend on the processing

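In none of the 15 other fits was any of the 5 KLF genes called, whatever the test, filter, normalization or library left out, and adding the study's fold threshold left the count at 0. KLF9 had a log2 fold change above 0 in all of them (0.018 to 0.67). The others changed sign in some. KLF4 was 0.17 with the background covariate and ran from −0.60 to 0.033 with 1 library left out. KLF7 was 0.021 with upper-quartile normalization, 0.39 with the covariate, 0.078 in the fit on background-subtracted counts, which tested 15077 genes and was normalized anew, and −0.49 to 0.15 with 1 library left out. KLF10 ran from −0.24 to 0.24 and KLF13 from −0.19 to 0.18 with 1 library left out. The cause was not tested.

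Libraries of the same number were not treated as pairs, since a shared litter is not stated. Their deviations from the group means correlated at 0.477, 0.039 and 0.4995 for numbers 1, 2 and 3. Libraries of unlike number correlated at −0.512 to 0.283. Numbers 1 and 3 thus stood above all of these, whereas baseline replicate 2 correlated better with complement replicate 3 (0.073) than with its own number. With a replicate block, edgeR called 2515 of 17512 genes (14.4%) and DESeq2 415 of 14291 (2.9%), and 0 of the 5 KLF genes in either; KLF10 was −0.0021 and KLF13 −0.0096 in the latter. In the edgeR block KLF9 had an unadjusted p of 0.0365 (edgeR adjusted p = 0.133), and 5446 of the 17512 genes had one under 0.05. The edgeR block called 2 other family genes (KLF1 higher, SP3 lower) and 1 target (LGALS3, lower), and the DESeq2 block called 2 targets (ENG and LGALS3, both lower).

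With 1 library left out, the number called ran from 0 to 1 for the other KLF and SP genes, from 0 to 4 for the regulators and from 0 to 3 for the targets. These calls came without complement replicate 3, and all were lower: SP1, MEF2A, EP300, CREBBP, WWP1, ENG, LGALS3 and SMAD7. That fit called 10.1% of all genes, 1155 higher and 700 lower. The number of KLF genes whose groups did not overlap ran from 0 to 2: KLF4 (lower) and KLF9 (higher) without baseline replicate 1, where 41.9% of all tested genes did not overlap, and KLF7 and KLF13 (both lower) without complement replicate 3, where 57% did not. These genes were named after their values were seen. The lowest count of the 5 genes was 145, and expected background reached 49.9% of it (KLF9).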
